A study of Mus musculus with 12 samples.

Results

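The 9 genes Spi1, Cebpa, Cebpb, Irf8, Irf5, Maf, Runx1, Csf1r and Csf2ra were followed across 12 RNA-Seq libraries of RAW 264.7 cells, a mouse macrophage line. They were chosen by name, as the transcription factors that set macrophage identity and the receptor subunits through which colony-stimulating factors reach these cells, and they are 9 of the 35944 genes listed. The test requires at least 10 estimated counts in at least 3 libraries, and 8 of the 9 were among the 13923 genes that met this; Cebpa did not. All cells had received, for 48 h and at 3 µg of protein per ml, extracellular vesicles (EVs) collected by ultracentrifugation from the mouse endothelial line MS-1, so no group was left without EVs. The EVs of the ctrl-EVs group had been electroporated with the premiR control. Those of the other groups, named miR-222-3p-EVs, miR-183-5p-EVs and miR-142-5p-EVs, carried the pre-miRNA mimic in the name. Each group holds 3 libraries, numbered 1 to 3 in the titles, and what a number stands for is not given. The methods say in general terms that experiments were repeated, but neither they nor the labels say that these libraries came from separate cultures, so p-values measure the spread between these libraries, which may be technical. RAW 264.7 is 1 transformed line, so these are levels in that line and not in primary macrophages.

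Macrophages are specified by a small set of factors that act together. PU.1, the product of Spi1, opens and occupies the enhancers of myeloid genes, often beside C/EBP, IRF and RUNX proteins, and the Csf1r gene is a classical target of PU.1 and RUNX1. The receptor encoded by Csf1r binds CSF1 and IL-34 and carries the signal for survival and proliferation, whereas Csf2ra encodes the ligand-binding chain for GM-CSF, which signals with a shared beta chain.

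To see whether the delivered miRNAs could pair with the members directly, the mature sequences are shown with the seed, bases 2 to 8 from the 5′ end, in capitals. They were copied from RefSeq annotation of GRCm38.p6, where miR-142-5p lies at chr11:87756867-87756887 on the plus strand, miR-183-5p at chr6:30169711-30169732 on the minus strand and miR-222-3p at chrX:19146901-19146923 on the minus strand.
miR-142-5p: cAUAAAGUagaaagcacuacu
miR-183-5p: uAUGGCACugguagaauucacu
miR-222-3p: aGCUACAUcuggcuacugggucu
The 3 seeds differ from each other, and each defines its own site of 7 bases. The site ACTTTAT (miR-142-5p) was present in the 3′ untranslated region (UTR) of the leading transcript of 13.7% of 13089 genes, GTGCCAT (miR-183-5p) in 8.92% and ATGTAGC (miR-222-3p) in 9.24%.

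Of the 9 members, 0 had the miR-142-5p site in the leading transcript, 0 had the miR-183-5p site and 1, Runx1, had that of miR-222-3p. When all annotated transcripts were searched, a miR-142-5p site was also found in Maf-201 and in Csf1r-202, neither of which leads its gene. The Runx1 site is shown because it is in a leading transcript and the Maf site because it is followed by an A, both 5′ to 3′ in the sense of the transcript, with the 7 bases in capitals.
Runx1 for miR-222-3p: tttagactttcATGTAGCtgggggtttta
Maf for miR-142-5p: ccatctcagagACTTTATatgctaatatg
The 7 bases lie at chr16:92605219-92605225 in Runx1 and at chr8:115683136-115683142 in Maf, both on the minus strand. The Runx1 site starts at base 430 of a UTR of 4189 bases and is not followed by an A. That of Maf starts at base 1647 of 1847 and is followed by an A, but Maf-201 was listed at 0 in all 12 libraries. Csf1r-202, whose site is not shown, had 0 to 97.1 estimated counts in a library. A match of letters is a description of the sequence and says nothing on binding.

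Depth and cell identity were checked over all libraries. Totals were 16294611 to 22974853 estimated counts, and the 4 libraries with the title number 2 were the shallowest, at 16294611 to 18927524. They also had the highest share of mitochondrial counts, 4.85 to 5.38% against 3.45 to 4.59% in the other 8. All 8 macrophage markers averaged at least 1 TPM (a level corrected for transcript length and library total), with a summed level of 937 to 1042 TPM in the number 1 libraries, 834 to 884 in number 2 and 1070 to 1142 in number 3. Of 10 endothelial markers, which could come with the vesicles, Pecam1, Egfl7 and Vwf averaged 1 TPM or more and Cldn5 was at 0, with sums of 25.6 to 29.5, 15.0 to 17.7 and 26.0 to 34.1 TPM. Egfl7 alone was at 10.1 to 26.2 TPM, whereas Cdh5, Kdr, Tek, Tie1, Esam and Emcn had medians of 0 to 0.178 TPM. Neutrophil markers (1 of 7 at 1 TPM or more), lymphoid markers (1 of 7), dendritic markers (1 of 4) and markers of erythroid and stem cells (0 of 6) summed to no more than 8.26 TPM in any library. These values move with the title number and their part in the results below was not tested, and in bulk RNA fewer cells of a type and less RNA per cell cannot be told apart.

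To place the members among each other, levels were compared in TPM. Spi1, at chr2:91082390-91115756, and Irf5, at chr6:29526625-29541871, led with means over the 12 libraries of 94.8 TPM (range 39.6 to 131) and 94.4 TPM (71.5 to 127). Their order was not settled, since Spi1 exceeded Irf5 in 5 of 12 libraries. Csf1r (chr18:61100598-61132149) followed with 53.8 TPM (16.5 to 104), below Irf5 in every library.

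A middle tier was formed by Csf2ra, Irf8, Cebpb and Runx1. Csf2ra (chr19:61223957-61228429) averaged 20.6 TPM (6.85 to 35.8) and Irf8 (chr8:120736358-120756694) 18.3 TPM (13.4 to 22.4), and Csf2ra was the higher in 5 of 12 libraries. Cebpb (chr2:167688915-167690418) averaged 13.1 TPM (7.58 to 18.4) and was below Irf8 in 10 of 12 libraries. Runx1 (chr16:92601466-92826149) averaged 9.36 TPM (7.11 to 13.9) and was below Cebpb in 10 of 12. Neighbours in this order overlapped in their ranges over libraries, with the single exception of Runx1 and Maf.

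Maf (chr8:115682942-115707794), which encodes a bZIP factor of mature and tissue-resident macrophages, was barely detected at 0.217 TPM (0.0664 to 0.437). Cebpa (chr7:35119293-35121928), the C/EBP factor of early myeloid commitment, was at 0 in 11 libraries and reached 3 estimated counts, 0.104 TPM, in the number 3 library of miR-222-3p-EVs. A count of 0 allows up to 3 counts, which is 0.131 to 0.184 CPM (counts scaled to the library total, counting error only), so Cebpa was not detectable at this depth and entered no test.

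Annotated neighbours limit some of these values, because the strand setting of the authors' counting is not given in the sources used here. Irf5 overlaps Tnpo3 and Csf1r overlaps Hmgxb3 on the opposite strand, and Cebpb overlaps Tmem189. Runx1, Maf and Cebpa each have an antisense gene (Gm26626, Gm15655 and Gm45091), and Irf8 shares its strand with the overlapping model Gm20388. Reads of these pairs could have been divided by estimate, which makes the levels of these genes uncertain to that extent.

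**Figure D1:**
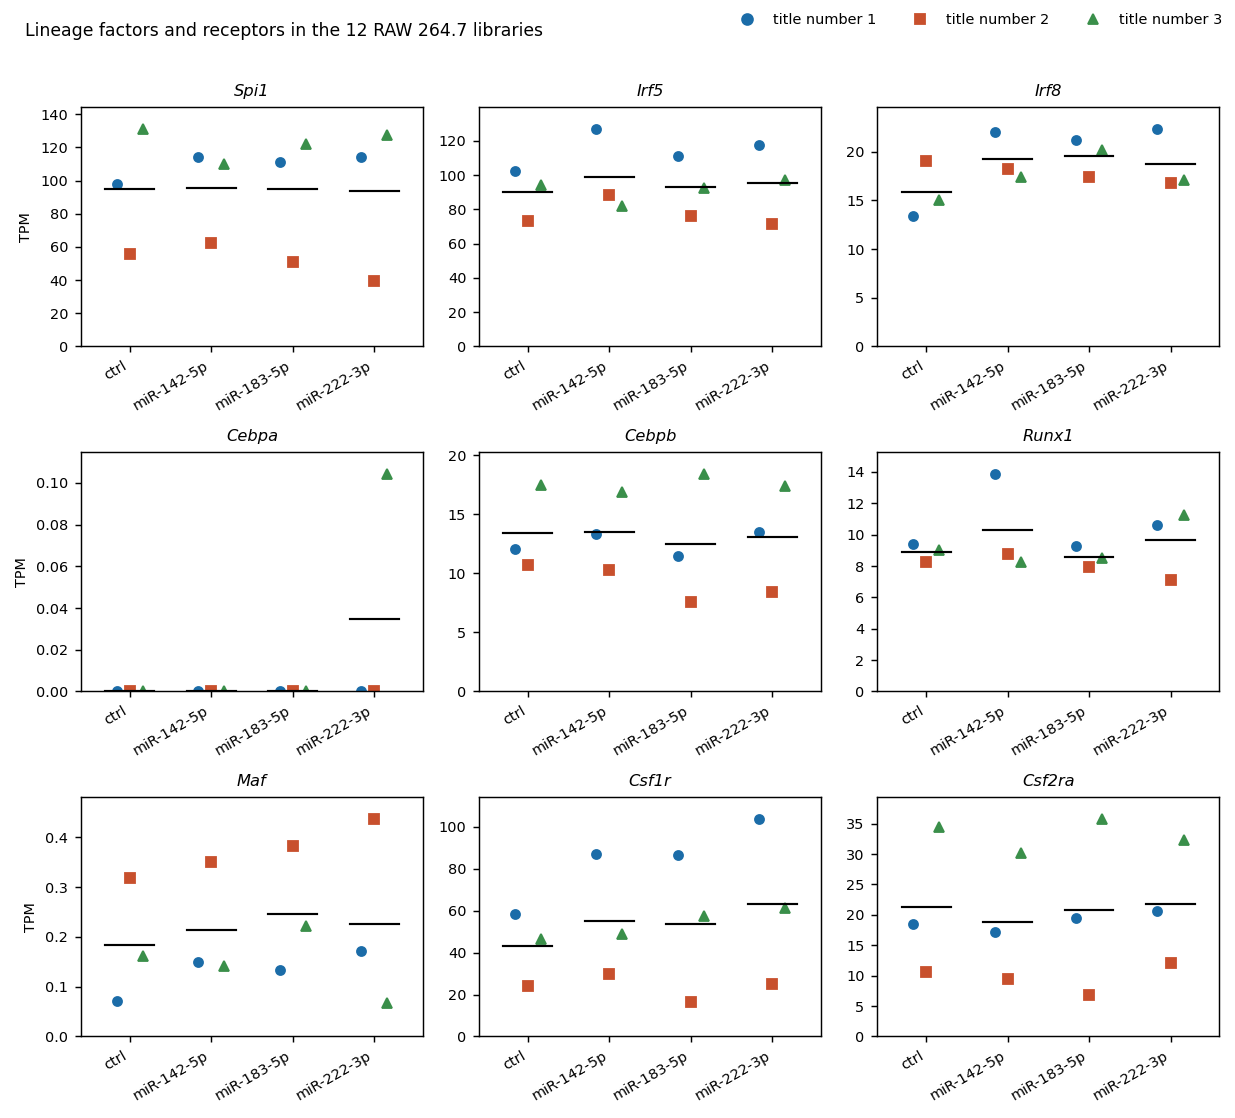
Level in TPM (y axis, from 0, a separate scale for each gene) of the 9 members in the 12 libraries, by EV group on the x axis, with the title number as colour and marker and the group mean as a black bar. In every group the number 2 library is the lowest for Spi1, Csf1r and Csf2ra, and Cebpa is at 0 in 11 libraries.

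To examine whether the miRNA-loaded EVs changed the members, ctrl-EVs served as the reference for every miR-EV group, and all 9 miR-EV libraries were set against the 3 of ctrl-EVs, on counts normalized for depth and transcript length (DESeq2, two-sided Wald test). No member passed an adjusted p of 0.05, that is 0 of 8 tested in each comparison. Over all genes, 0.00719% were called with miR-142-5p-EVs (1 of 13914) and 0 with miR-183-5p-EVs, with miR-222-3p-EVs or with all miR-EVs together. The likelihood ratio test over the 4 groups also called 0 of 8 members, against 0.00719% of all genes. At an unadjusted p under 0.05 there were 67 to 142 genes over these 5 tests, and no member was among them.

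Because libraries with the same title number deviated together (mean r across genes 0.608 over 18 pairs), the tests were repeated with the title number as a block. The block again called 0 of 8 members with miR-142-5p-EVs (0.0575% of all genes), 0 of 8 with miR-222-3p-EVs (0.0359%) and 0 of 8 over the 4 groups (0.0862%). It called 0 of 7 with miR-183-5p-EVs (0.572%) and 0 of 7 with all miR-EVs (0.767%), as Maf had no adjusted p there. Unadjusted p under 0.05 was then reached by 746 to 1480 genes. Among the members it was reached by Csf1r alone, with miR-222-3p-EVs, where its DESeq2 adjusted p was 0.628.

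Csf1r is given in full as the member that reached this unadjusted p. Its normalized counts in the number 1, 2 and 3 libraries were 2604, 1162 and 2119 with ctrl-EVs. The miR-222-3p-EVs had 4670, 1261 and 2478, miR-142-5p-EVs had 3774, 1476 and 1999, and miR-183-5p-EVs had 3814, 862 and 2320. Within the same number, miR-222-3p-EVs was above ctrl-EVs in 3 of 3 pairs and the other miR-EVs in 4 of 6, but the groups overlapped widely. The group means were 1962 ± 734 with ctrl-EVs and 2803 ± 1728, 2416 ± 1204 and 2332 ± 1476 with the miR-EVs in the same order (SD, n = 3). The log2 difference of miR-222-3p-EVs from ctrl-EVs was 0.52 ± 0.58 (SE), and 0.39 ± 0.17 with the block (95% interval 0.06 to 0.72). With the block but without length in the normalization it was 0.21 (-0.07 to 0.49), and the unadjusted p of DESeq2 was then 0.133. Without the number 1 library of miR-222-3p-EVs the unblocked value was -0.07. That fit sets numbers 2 and 3 against all 3 numbers of ctrl-EVs, so it mixes the title number with the EVs. The same-number log2 ratios of miR-222-3p-EVs to ctrl-EVs were 0.84, 0.12 and 0.23 in numbers 1, 2 and 3.

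Irf8 encodes a partner of PU.1 in monocyte and dendritic commitment. Its normalized counts were 476, 730 and 547 in ctrl-EVs, 761, 721 and 565 in miR-142-5p-EVs, 742, 725 and 647 in miR-183-5p-EVs and 800, 678 and 547 in miR-222-3p-EVs. The ctrl-EVs library of number 1 was the lowest of all 12, and the number 2 libraries differed little from each other. All miR-EVs exceeded ctrl-EVs by 0.24 ± 0.18 (log2, SE), a difference that did not pass (95% interval -0.12 to 0.59). Without that 1 ctrl-EVs library, and without the block, it was 0.11, but numbers 2 and 3 of ctrl-EVs then stood against all numbers of miR-EVs. The block narrowed the spread for Irf8 too. With miR-142-5p-EVs alone the difference was 0.23 ± 0.22 without the block and 0.22 ± 0.15 with it (95% interval -0.08 to 0.52). The blocked difference of the pooled miR-EVs is not listed here for Irf8 or Csf1r. In that pooled fit the smallest unadjusted p of any member was 0.065 (DESeq2 Wald test), and the smallest adjusted p was 0.443. Blocked miR-183-5p-EVs came next, at 0.0755 and 0.472 by the same test. These p-values are minima over the members and are not assigned to a gene here.

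For Runx1, whose 3′ UTR carries the miR-222-3p site shown above, normalized counts were 731, 554 and 697 in miR-222-3p-EVs and 643, 608 and 633 in ctrl-EVs. The ranges overlapped, and the log2 difference was 0.07 ± 0.23 (SE, 95% interval -0.37 to 0.52), or 0.07 ± 0.16 with the block (-0.25 to 0.39). A fall larger than the lower bound of these intervals was therefore not seen in total Runx1 mRNA. In miR-142-5p-EVs the number 1 library stood out, at 926, above the 516 to 731 of the other 11.

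The other members had smaller or less certain differences for all miR-EVs against ctrl-EVs. On the log2 scale with SE they were -0.07 ± 0.34 for Spi1, -0.11 ± 0.25 for Cebpb, 0.05 ± 0.19 for Irf5, -0.14 ± 0.46 for Csf2ra and 0.34 ± 0.70 for Maf. The intervals were wide before the block (Csf2ra -1.04 to 0.76) and narrower with it (Csf2ra -0.40 to 0.17, Spi1 -0.31 to 0.18, Irf5 -0.16 to 0.24, Cebpb -0.36 to 0.15). The median absolute log2 difference of the 8 members was 0.12, the same as the 0.12 of all genes tested. A p that misses the threshold does not show that the groups are alike, and these intervals give the sizes that the libraries allow.

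**Figure D2:**
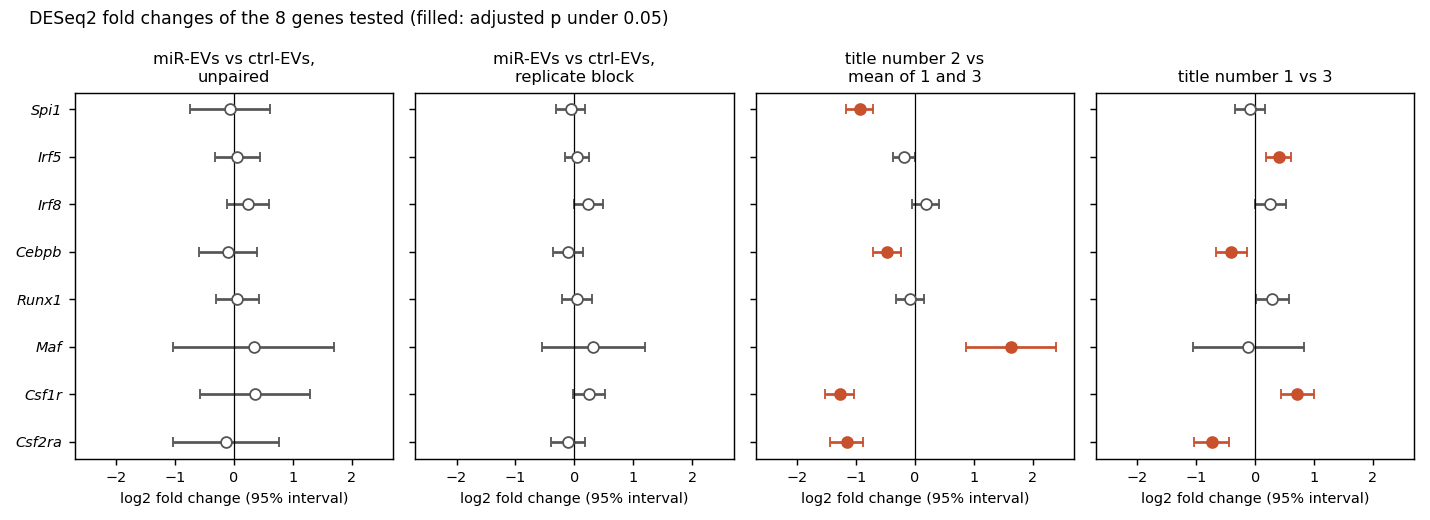
log2 fold change (x axis) of the 8 members tested, with bars for the 95% interval, in 4 comparisons: all miR-EVs against ctrl-EVs without and with the title number as a block, title number 2 against 1 and 3, and number 1 against 3. Filled points have an adjusted p under 0.05: there are 0 in both EV panels, 5 for number 2 and 4 for number 1 against 3.

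To describe how the members varied across the title numbers, the 4 libraries of number 2 were compared with the mean of numbers 1 and 3, and number 1 with number 3, in a model that also held the EV group. The number and whatever it marks, depth included, cannot be told apart. In any of the 3 numbers 6 of 8 members differed (69.4% of all genes, likelihood ratio test). For number 2 it was 5 of 8 (64.1% of all genes), with 4 lower (32.1%) and 1 higher (32.0%). Between numbers 1 and 3 it was 4 of 8 (23.4%), with 2 higher in number 1 (12.9%) and 2 lower (10.5%). Most genes in the library set differed by number, so such counts are close to the background for number 2. In size, the median absolute log2 difference of the members for number 2 was 0.70, against 0.46 for all genes, and their median was -0.33, against 0.01. These sizes carry no test, and the members were chosen with earlier results of these data known.

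The receptors had the largest falls in number 2. Csf1r, the CSF1 receptor, had 1162, 1476, 862 and 1261 normalized counts in the number 2 libraries (ctrl-EVs first, then EVs with miR-142-5p, with miR-183-5p and with miR-222-3p, here and below). In number 1 it had 2604, 3774, 3814 and 4670, and in number 3 it had 2119, 1999, 2320 and 2478. Every number 2 library was below every other library, and the 3 numbers did not overlap with each other in normalized counts. In TPM, number 2 was again below the others, but number 1 (58.4 to 104) and number 3 (46.3 to 61.5) overlapped. Csf1r was 0.413-fold in number 2 (log2 -1.27 ± 0.13 SE, adjusted p = 1.03e-22) and 1.64-fold higher in number 1 than in number 3 (0.72 ± 0.14, adjusted p = 1.45e-05).

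Csf2ra, the alpha chain of the GM-CSF receptor, also had its lowest values in number 2 but its highest in number 3. The normalized counts were 229, 207, 239 and 258 in number 1, 143, 130, 99.7 and 171 in number 2, and 439, 343, 403 and 363 in number 3. Again the 3 numbers did not overlap. It was 0.449-fold in number 2 (log2 -1.16 ± 0.14, adjusted p = 3.95e-15), and number 1 was 0.601-fold of number 3 (-0.73 ± 0.15, adjusted p = 2.21e-05), opposite in direction to Csf1r.

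The balance of the receptors, taken over all transcripts of each gene, therefore followed the number. The ratio of Csf1r to Csf2ra in TPM was 3.16, 5.08, 4.44 and 5.04 in number 1, 2.27, 3.16, 2.40 and 2.05 in number 2, and 1.34, 1.62, 1.60 and 1.90 in number 3. All 4 number 3 libraries were below the other 8, and numbers 1 and 2 met at 3.16. In number 1 and number 3 the ctrl-EVs library had the lowest ratio of the 4, and in number 2 it was the second lowest. The ratio was looked at after the values of both genes were seen and carries no test. It also rests on a short retained-intron model described below, Csf2ra-205, which held 41.1 to 64.8% of the Csf2ra TPM in a library. The coding transcript Csf2ra-201 was at 4.24 to 7.73 TPM in number 1 and 2.16 to 3.80 in number 2. In number 3 it was at 6.60 to 10.3 TPM, which overlapped number 1. A ratio of coding transcripts alone was not taken.

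The promoter of Csf2ra is printed because it has the letters of a PU.1 core, GAGGAA, in tandem. It is from RefSeq on GRCm38.p6, 250 bases before to 50 after the start, at chr19:61228369-61228668 on the minus strand, and capitals mark GAGGAA on either strand.
Csf2ra promoter: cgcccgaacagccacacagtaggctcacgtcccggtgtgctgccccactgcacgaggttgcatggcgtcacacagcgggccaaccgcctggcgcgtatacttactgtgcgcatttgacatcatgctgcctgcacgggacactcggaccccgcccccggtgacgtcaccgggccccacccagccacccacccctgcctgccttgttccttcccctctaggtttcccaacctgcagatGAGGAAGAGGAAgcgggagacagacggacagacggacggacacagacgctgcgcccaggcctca
It holds 2 matches. GAGGAA on either strand is in 28.3% of the 32851 promoters of that length, so the presence of the letters is common. None of the promoters of Cebpb, Irf5, Cebpa and Irf8 in the same set holds GAGGAA or TGTGGT.

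Spi1, which encodes PU.1, was lower in number 2 by a similar margin. The normalized counts were 1257, 1431, 1412 and 1481 in number 1, 776, 900, 768 and 580 in number 2, and 1736, 1298, 1425 and 1482 in number 3. The number 2 libraries were all below the others, whereas numbers 1 and 3 overlapped. The fold was 0.522 for number 2 (log2 -0.94 ± 0.11, adjusted p = 2.72e-15), and numbers 1 and 3 differed by -0.09 ± 0.13 (adjusted p = 0.696).

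Cebpb, a C/EBP factor of activated macrophages, changed less. It had 229, 247, 215 and 259 normalized counts in number 1, 220, 218, 170 and 183 in number 2, and 341, 295, 319 and 300 in number 3. Number 3 was above all other libraries, and numbers 1 and 2 touched. The fold was 0.722 in number 2 (log2 -0.47 ± 0.12, adjusted p = 0.000335) and 0.756 for number 1 over 3 (-0.40 ± 0.14, adjusted p = 0.0175). The latter call was lost, with an adjusted p of 0.0578 to 0.166, when any of 6 single libraries was left out (ctrl-EVs 1 or 3, miR-142-5p-EVs 1, miR-183-5p-EVs 1 or 3, or miR-222-3p-EVs 3).

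Among the interferon regulatory factors, Irf5, a driver of inflammatory cytokine genes, had 2361, 2853, 2518 and 2735 normalized counts in number 1, 1816, 2266, 2065 and 1879 in number 2, and 2235, 1728, 1924 and 2017 in number 3. Number 1 was above number 3 in all libraries, by 1.32-fold (log2 0.40 ± 0.11, adjusted p = 0.00204). Number 2 differed from the mean of the others by -0.18 ± 0.09 (adjusted p = 0.0794), a value that passed at -0.35 (adjusted p = 2.66e-05) when transcript length was left out of the normalization. It also passed without ctrl-EVs 1 (-0.21), miR-142-5p-EVs 2 (-0.25) or miR-142-5p-EVs 3 (-0.24).

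Irf8 did not pass for number 2 (log2 0.18 ± 0.12, adjusted p = 0.155) or for number 1 against 3 (0.26 ± 0.13, adjusted p = 0.157). Without the low ctrl-EVs library of number 1 the latter became 0.41 (adjusted p = 0.00244), and without length in the normalization the former was 0.23 (adjusted p = 0.0451). The mean normalized counts by number were 695 ± 148, 713 ± 23.6 and 577 ± 47.7 (SD, n = 4).

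Maf went the other way. Its normalized counts were 30.4, 35.2, 40.3 and 44.8 in number 2, against 6.02, 13.4, 11.9 and 15.6 in number 1 and 15.2, 11.9, 18.2 and 5.41 in number 3. The number 2 libraries were all above the others. The rise was 3.10-fold (log2 1.63 ± 0.39, adjusted p = 6.51e-05) at a level under 0.5 TPM in every library, and numbers 1 and 3 did not pass (-0.12 ± 0.48, adjusted p = 0.899).

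Runx1 did not pass for number 2 (log2 -0.09 ± 0.12, adjusted p = 0.539) or for number 1 over 3 (0.29 ± 0.14, adjusted p = 0.117). Without length in the normalization the log2 difference for number 2 was 0.028. Its means by number were 732 ± 137, 617 ± 49.5 and 593 ± 87.3 normalized counts (SD, n = 4). Cbfb, the non-DNA-binding partner of all RUNX proteins, fell by 0.40 on the log2 scale in number 2 (adjusted p = 3.09e-09).

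To look below the gene level, the transcript with the most TPM was followed in the 5 members with at least 2 transcripts averaging 1 TPM. Its share of the gene's TPM was 49.4% ± 3.89 in miR-EVs (SD, n = 9) and 49.2% ± 1.71 in ctrl-EVs (n = 3) for Spi1-204, and 55.8% ± 7.41 and 58.1% ± 4.35 for Irf5-201. It was 58.6% ± 7.99 and 59.6% ± 1.78 for Runx1-201, and 79.2% ± 8.66 and 82.6% ± 4.03 for Csf1r-201. For Csf2ra-205 it was 56.5% ± 6.30 and 51.4% ± 8.99. The differences ran from -3.47 to 5.09 percentage points and none passed (two-sided exact permutation test, unadjusted p = 0.286 to 0.964, adjusted p = 0.964 for each of the 5). The smallest p of this permutation is 0.00455, but it exchanges libraries without regard to the title number. An exact sign-flip test paired by number gave p of 0.5 or more. It could not pass in any case, because its smallest p is 0.25.

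These shares depend on the unit. Spi1-204 is a model of 544 bases that starts 13706 bp upstream of Spi1-201, and it took 19.4% of the gene's estimated counts. Csf2ra-205 is a retained-intron model of 632 bases and took 29.4% of the counts in miR-EVs. Csf1r-205, of 416 bases, averaged 9.32 TPM of the 53.8 TPM of its gene, and Irf5-204, of 402 bases, averaged 16.2 of 94.4 TPM. Short models therefore carry part of the TPM of Spi1, Irf5, Csf2ra and Csf1r, which bears on the order of levels and on the ratio of Csf1r to Csf2ra above.

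Runx1 is transcribed from a distal and a proximal promoter, whose products differ at the N-terminus. The starts of Runx1-201 (distal) and Runx1-202 (proximal) are 128821 bp apart. Both promoters are printed, from RefSeq on GRCm38.p6, because their share differed between libraries. They lie at chr16:92826025-92826324 and chr16:92697280-92697579, on the minus strand, and capitals mark TGTGGT (the RUNX core) and GAGGAA on either strand.
Runx1 distal promoter: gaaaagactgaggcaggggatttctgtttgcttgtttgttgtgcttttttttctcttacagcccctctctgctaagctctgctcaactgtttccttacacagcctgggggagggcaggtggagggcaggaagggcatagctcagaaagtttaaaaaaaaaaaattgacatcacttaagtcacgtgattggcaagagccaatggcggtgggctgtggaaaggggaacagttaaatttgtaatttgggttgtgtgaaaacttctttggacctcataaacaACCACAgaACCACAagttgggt
Runx1 proximal promoter: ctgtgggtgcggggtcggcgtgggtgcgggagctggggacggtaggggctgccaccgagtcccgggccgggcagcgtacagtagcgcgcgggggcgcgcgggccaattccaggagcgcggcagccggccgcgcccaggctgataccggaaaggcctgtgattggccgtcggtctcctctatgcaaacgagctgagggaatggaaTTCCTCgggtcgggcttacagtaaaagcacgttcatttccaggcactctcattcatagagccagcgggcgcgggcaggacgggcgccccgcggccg
The distal window holds 2 RUNX matches, set 2 bases apart, and the proximal window holds 1 GAGGAA match and 0 RUNX matches. TGTGGT is in 16.8% of the 32851 promoters.

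Transcripts from the distal start held most Runx1 counts in all libraries. Their share of the gene's estimated counts was 70.4, 68.4, 69.2 and 64.8% in number 1, 70.6, 74.3, 77.8 and 73.9% in number 2 and 81.5, 76.9, 76.6 and 75.1% in number 3. By counts number 1 was below all the other libraries, but by TPM number 1 (56.8 to 70.0%) and number 2 (67.0 to 73.2%) overlapped. Numbers 2 and 3 overlapped, and no EV group stood apart. This split by start was chosen after the transcripts were seen and has no test. For Spi1, transcripts from the upstream start held 18.9 to 27.9% of the counts, with all 3 numbers overlapping.

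**Figure D3:**
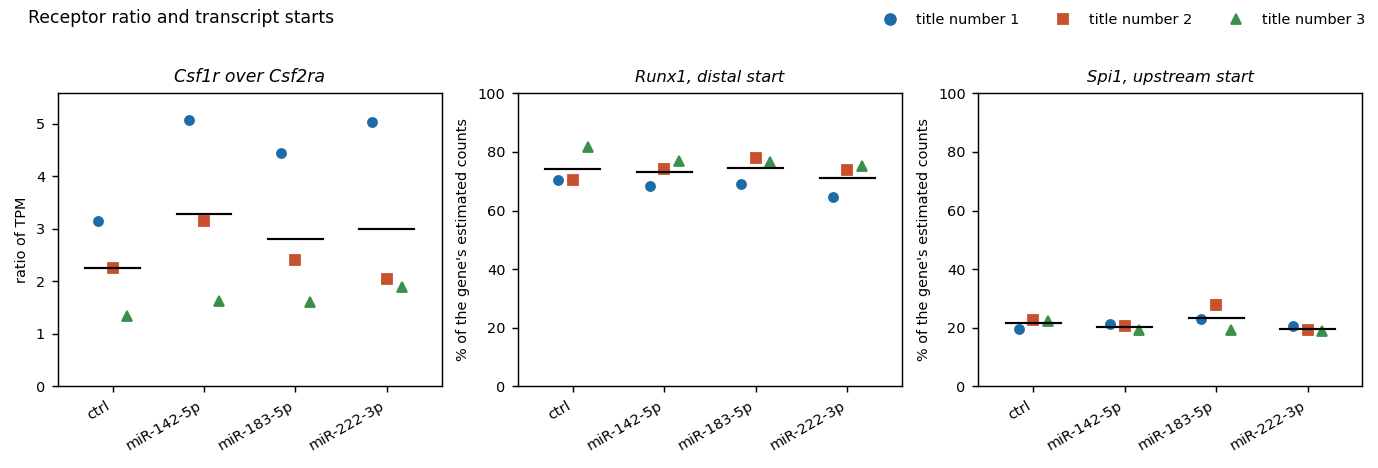
Ratio of Csf1r to Csf2ra in TPM (left) and the share of a gene's estimated counts, in %, from the distal Runx1 start (middle) and the upstream Spi1 start (right), by EV group on the x axis, with title numbers as colours and group means as bars. In the left panel number 3 is lowest in every group at 1.34 to 1.90, and in the middle panel number 1 lies below all other libraries at 64.8 to 70.4%, a separation that is not kept when the share is taken from TPM (56.8 to 70.0% against 67.0% and more).

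To complete the receptor systems, their ligands and chains were followed in TPM. Csf1, the ligand of Csf1r, was at 5.02, 5.09, 7.13 and 6.34 TPM in number 1, 3.77, 3.68, 2.55 and 4.04 in number 2, and 9.48, 11.7, 11.7 and 11.8 in number 3. It did not overlap between numbers, and its order was that of Csf2ra and not that of its own receptor. Csf1 fell by 0.99 in number 2 (log2, adjusted p = 3.50e-12) and was lower in number 1 than in number 3 by -0.84 (adjusted p = 6.88e-07). Il34, the other ligand, had at most 5 estimated counts in a library.

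Csf2, which encodes GM-CSF itself, was expressed by the cells at 11.2 to 15.5 TPM in number 1, 7.06 to 8.32 in number 2 and 8.22 to 10.9 in number 3. It passed for number 1 over 3 (log2 0.57, adjusted p = 0.0265) but not for number 2 (-0.36, adjusted p = 0.0742). Csf2rb, the signalling chain shared with the IL-3 and IL-5 receptors, was at 31.2 to 40.0, 10.7 to 33.8 and 24.3 to 38.3 TPM, with overlap, and did not pass (-0.56, adjusted p = 0.0632). Its near-identical copy Csf2rb2 fell by 1.48 (log2, adjusted p = 3.85e-11), from 1.72 to 3.72 TPM in the other numbers to 0.761 to 0.990 in number 2, which is uncertain because the copies share reads. Csf3r, the G-CSF receptor, fell by 1.79 (log2, adjusted p = 2.53e-26), from 10.3 to 15.6 TPM to 2.46 to 4.43.

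**Figure D4:**
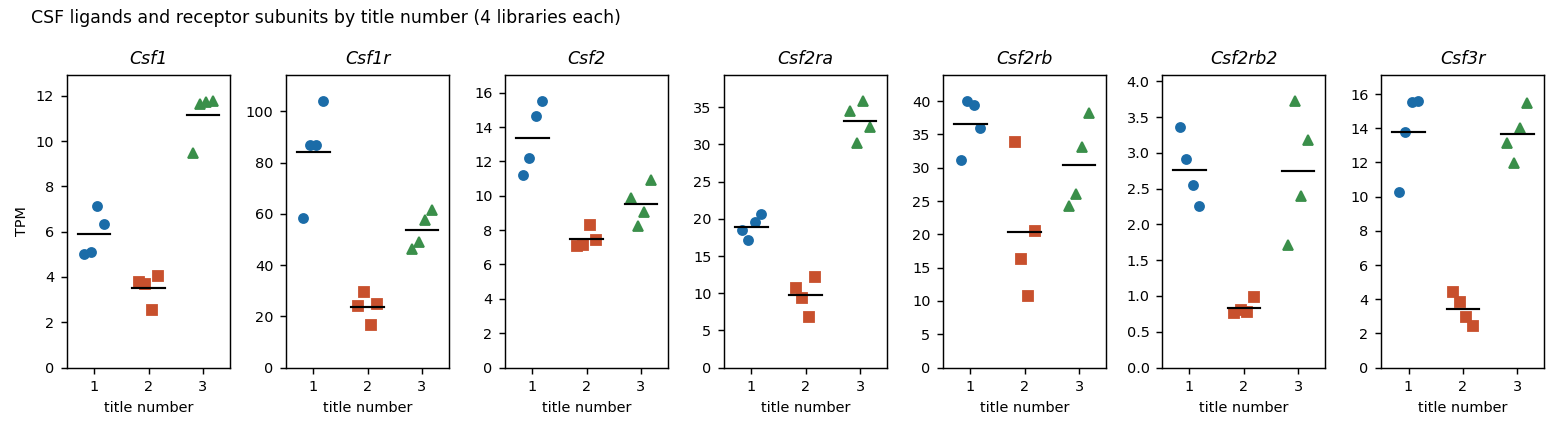
Level in TPM (y axis, from 0, a separate scale for each gene) of the CSF ligands and receptor chains in the 4 libraries of each title number (x axis), with the mean as a bar. Csf1r, Csf2ra, Csf1, Csf2rb2 and Csf3r have their lowest values in number 2, while the mean of Csf1r is highest in number 1 and those of Csf1 and Csf2ra are highest in number 3.

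The wider families were described by lists. Of 58 related lineage factors 51 were tested, and 37 passed for number 2, with 26 lower and 11 higher and a median log2 difference of -0.24. Lyl1, a bHLH factor of blood progenitors, fell by 2.19 (adjusted p = 6.62e-52) and Irf7, a regulator of type I interferon genes, fell by 1.80 (adjusted p = 4.49e-27), while Bhlhe41 rose by 2.61 (adjusted p = 6.89e-124). Close relatives of the members that fell in number 2 included Irf4 (-0.90, adjusted p = 1.99e-06), Cebpd (-1.08, adjusted p = 9.87e-05) and Cebpe (-1.58, adjusted p = 0.0401). Relatives that did not pass included Spib (0.38, adjusted p = 0.407), Runx2 (0.80, adjusted p = 0.140) and Runx3 (-0.20, adjusted p = 0.756).

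Of 47 genes of CSF receptor signalling 42 were tested, and 30 passed for number 2 (18 lower, 12 higher, median -0.12). The SRC-family kinase gene Fgr, whose product acts downstream of myeloid receptors, fell by 1.88 on the log2 scale. Of 44 macrophage targets of PU.1 and C/EBP 41 were tested, and 32 passed, with 24 lower and 8 higher and a median of -0.42. The largest falls were those of Ccl2 (a monocyte chemokine, 3.46), Fcgr1 (the high-affinity IgG receptor, 2.32) and Clec4e (the receptor Mincle, 1.57), on the log2 scale. The shares that passed in these 3 lists are to be read against the 64.1% of all genes.

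Between numbers 1 and 3 the same lists had 14 of 51, 13 of 42 and 18 of 41 genes past the test, against 23.4% of all genes. Their medians were -0.02, 0.00 and 0.06. Nos2, the inducible nitric oxide synthase, rose by 2.61, Emb by 1.38 and Cx3cr1, the fractalkine receptor, by 1.37 in number 1 among the targets. Klf2, a factor of quiescent myeloid cells, fell by 2.06, and Id3 and Bhlhe41 rose by 0.82 and 0.74. Among the signalling genes, Adam10, a sheddase, rose by 0.74 and Ccnd1, cyclin D1, by 0.60.

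In the comparisons of miR-EVs with ctrl-EVs, 0 genes of the 3 lists passed without the block, as did 0 members. With the block, Ddit3, which encodes the C/EBP antagonist CHOP, was lower with all miR-EVs (log2 -0.35, adjusted p = 0.00134), with miR-142-5p-EVs (-0.38, adjusted p = 0.0206) and with miR-183-5p-EVs (-0.34, adjusted p = 0.0358). Mef2c (0.31, adjusted p = 0.0214) and the NADPH oxidase gene Cybb (0.75, adjusted p = 0.00722) were higher with all miR-EVs, and Cybb was also higher with miR-183-5p-EVs (0.74, adjusted p = 0.0492). By edgeR with the block 0 genes passed in any of these comparisons, and the comparisons share the 3 ctrl-EVs libraries.

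To find the genes whose pattern was most like that of each member, Pearson's r of log2 normalized counts was taken over the 12 libraries against all genes that averaged 50 or more. The points share their title numbers, so a high r reflects the common pattern of the numbers and carries no p. The closest were Stat6 (r = 0.980) for Csf1r, Prkar1a (0.982) for Csf2ra, Rnf113a2 (0.981) for Spi1 and Smarcd1 (0.968) for Cebpb. They were Oard1 (0.962) for Irf5, Rexo1 (0.949) for Maf, Spats2 (0.923) for Runx1 and Nup188 (0.886) for Irf8. Among the members themselves, r was 0.914 for Cebpb with Csf2ra and 0.813 for Irf5 with Runx1. For Spi1 it was 0.809 with Cebpb, 0.799 with Csf2ra, 0.796 with Csf1r and -0.783 with Maf.

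After the mean of each number was taken out, other genes came first. They were Ikbke (r = 0.974) for Csf1r, 1810009A15Rik (0.933) for Spi1, Gm16531 (0.941) for Csf2ra, C1ra (0.966) for Irf8, Mx1 (0.924) for Runx1 and Fkbp4 (0.961) for Maf. For the pairs of members above, r was then 0.399 for Cebpb with Csf2ra and 0.745 for Irf5 with Runx1. For Spi1 it was 0.582 with Cebpb, -0.183 with Csf2ra, 0.300 with Csf1r and 0.093 with Maf. These values describe what is left within a number over 12 points.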

How the data were processed

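Polyadenylated RNA of RAW 264.7 cells (12 libraries) was prepared by the authors with a stranded mRNA kit and sequenced as read pairs, and reads were assigned to mouse transcripts with Salmon (filters and strand setting not given in the sources used here). The methods and the names of the deposited files give different Ensembl releases for the transcripts. The deposited files hold estimated counts per transcript, not normalized, and the deposited TPM values, which correct for length and sum to the same total in each library. Groups and numbers came from the titles.

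Transcripts were matched by identifier to GENCODE vM21 on GRCm38 (98.3% of 118783; the rest held 0.570 to 0.642% of counts) and summed to genes. Counts were rounded and tested with DESeq2 1.42.0 in R 4.3.3 with the mean transcript length as an offset, as the study used tximport and DESeq2. Genes needed at least 10 counts in at least 3 libraries, and called means a Benjamini-Hochberg adjusted p under 0.05 over all genes. The EV groups were fitted without a block, and the title numbers with the group as a covariate. Libraries of the same number correlated in their deviations from the group means (r 0.409 to 0.797 over 18 pairs), so the number, taken from the titles, was treated as pairing. Over the other 36 pairs r averaged -0.287. This follows from the same-number value, because deviations cancel within a group, and is not separate evidence. Transcript shares were compared by exact permutation, and by exact sign flips paired by title number, in Python 3.11.15 with scipy 1.17.1. The code was tested on simulated counts.

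The members and lists were chosen with earlier results of these data known. The genes named are the members, the ligands, chains and close relatives in fixed lists, the up to 3 called genes per list with the largest change, and the genes with the highest r; some genes these rules select are not reported here. The alternatives were edgeR 4.0.16, TMM factors, no length offset, no filter, fits of only the compared groups, the block, and leaving out each library. The fits without title number 2 and the block without the offset were added after the data were seen. Totals were 16294611 to 22974853 estimated counts per library, and floors cover counting error only. Coordinates are GRCm38. Promoters were found for Cebpa, Cebpb, Irf5, Irf8, Runx1 and Csf2ra.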

Additional observations from a re-analysis of the deposited data

Results flagged for a closer look

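For 3 members the miR-EV libraries moved in opposite directions in different title numbers, each measured against the ctrl-EVs library of the same number, and the difference was not tested. Values are mean log2 ratios of 3 miR-EV libraries over that 1 ctrl-EVs library, which they share, so a single ctrl-EVs library enters each. All 3 fall on the same side whenever that library is the lowest or the highest of the 4. The share of all genes with such a pattern was not counted, so the 3 members cannot be set against a background. For Spi1 all 3 were above ctrl-EVs in number 1 (0.20) and below in number 3 (-0.31). For Irf8 all 3 were above in number 1 (0.69) and in number 3 (0.10) and below in number 2 (-0.045). Some of these Irf8 differences were close to none. In number 3 miR-222-3p-EVs had 547.3 and ctrl-EVs 546.9 normalized counts, and in number 2 the log2 ratios were -0.11 to -0.010. For Irf5 all 3 were above in numbers 1 and 2 (0.19 and 0.18) and below in number 3 (-0.25). Dixon's test was run on the 24 sets of 4 libraries (8 members in 3 numbers). In 0 of them was a library far enough from the others to pass, which happens by chance alone in about 1 of 20. The Irf8 sets came closest, just under the cut-off. The gap to the nearest library over the range was 0.822 (ctrl-EVs, number 1), 0.821 (miR-222-3p-EVs, number 2) and 0.814 (miR-183-5p-EVs, number 3). With only 4 libraries in a set, the count of 0 does not show that no single library drives a pattern.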

How the results depend on the processing

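With the replicate block the called genes were 5 (miR-222-3p-EVs), 58 (miR-183-5p-EVs), 8 (miR-142-5p-EVs), 84 (all miR-EVs) and 12 (over the 4 groups), against 0, 0, 1, 0 and 1 without it. In the same order they were 6, 32, 4, 54 and 4 when the block lacked the length offset, 3, 4, 2, 6 and 5 without title number 2, and 21, 13, 27, 81 and 38 with the block and without title number 2. edgeR called 0 with and without the block where DESeq2 had called 1 (miR-142-5p-EVs, and over the 4 groups), and the fit of only the 2 compared groups called 0 there for miR-142-5p-EVs. The members called in comparisons of EV groups were 0 under every one of these settings, and the replicate block changed no other call of a member. Leaving out 1 library gave 0 to 1 genes for the miR-142-5p and miR-183-5p EVs alike, 0 to 2 for all miR-EVs and over the 4 groups, and 1898 (without miR-222-3p-EVs 1) to 3763 for number 1 against 3, with 1930, 2046 and 2084 without miR-142-5p-EVs 1, miR-222-3p-EVs 3 or miR-183-5p-EVs 3.

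Signs changed only for values that had not passed. Runx1 in number 2 became 0.028 with no length offset, Irf5 with all miR-EVs became -0.029 with the block and without title number 2, and the shares of Spi1-204 and Csf1r-201 by estimated counts differed by -0.037 and 1.39 percentage points. Leaving out 1 library, log2 differences ran from -0.17 to 0.0063 (Runx1) in number 2, and from -0.19 to 0.0078 (Spi1) and -0.51 to 0.15 (Maf) for number 1 against 3. For all miR-EVs they ran from -0.32 to 0.24 (Spi1), -0.22 to 0.13 (Cebpb), -0.049 to 0.13 (Irf5), -0.073 to 1.03 (Maf), -0.028 to 0.11 (Runx1) and -0.44 to 0.40 (Csf2ra). For Csf1r they ran from -0.17 to 0.56 with miR-142-5p-EVs, -0.30 to 0.65 with miR-183-5p-EVs and -0.068 to 0.86 with miR-222-3p-EVs, and for Runx1 with the last from -0.0044 to 0.19. The leave-one-out fits of EV groups had no block, so leaving out a library also unbalances the title numbers between the groups. Their ranges therefore hold differences between numbers as well. Shares ran from -0.69 to 1.01 (Spi1-204), -2.58 to 0.27 (Runx1-201) and -0.071 to 8.18 (Csf2ra-205) points. With 6 bases the seed sites were in 3 of the 9 members for miR-142-5p, 1 for miR-183-5p and 2 for miR-222-3p. Over the 13089 genes searched, the shares with such a site were 35.1, 32.1 and 28.5% in the same order. With 8 bases the sites were in 0 members for miR-222-3p (3.29% of genes). With 7 bases searched over any transcript, they were in 2 members for miR-142-5p (18.03% of genes). The cause of the differences between settings was not tested. The low counts of Maf and Cebpa limit what can be seen of them.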
